A study of Mus musculus with 4 samples.

Results

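The genes that encode histone lysine and arginine methyltransferases were followed in normal mouse prostate and in prostate tumours of the TRAMP model. The set was chosen by name as 45 genes, and all 45 were found among the 24319 gene names of the RNA-seq tables, each on a single row. The rule uses gene names only. RNA of 2 normal prostates was compared with RNA of 2 TRAMP tumours. The normal prostates came from wild-type males aged 22 weeks, labelled C57BL/6:FVB. The tumours came from late-stage males aged 24 weeks per the sample labels, and 24 to 28 weeks per the protocol. These males were heterozygous for a transgene that expresses SV40 T antigen from the rat probasin promoter, which is active in prostate epithelium, on the same mixed C57BL/6 and FVB background. Each normal library came from a single prostate, per the protocol. The labels do not say that the 2 tumours came from separate mice, and the spread behind each p-value is that of these samples alone, which may be technical.

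Histone methyltransferases transfer methyl groups from S-adenosylmethionine to lysine or arginine side chains. Most lysine enzymes share a SET domain, DOT1L is the exception, and the arginine enzymes form the PRMT family. Methylation of H3K27 and H3K9 is known for silent chromatin, that of H3K4 for promoters and enhancers, that of H3K36 and H3K79 for transcribed gene bodies, and that of H4K20 for chromatin compaction and replication. Several of these enzymes work only as subunits of larger complexes, such as EZH2 in Polycomb repressive complex 2 (PRC2) and the KMT2 proteins in COMPASS.

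Expression was deposited as FPKM, fragments per kilobase of transcript scaled to the number of mapped fragments. Values below are scaled FPKM, which is FPKM divided by a median-of-ratios factor per library (0.793 and 0.689 for the normal prostates, 1.34 and 1.503 for the tumours). The interval widths in the tables imply totals of 985509 (normal 1), 1578847 (normal 2), 1431957 (tumour 1) and 1141314 (tumour 2) fragments. Of all genes, 13162 reached an FPKM of 1 in at least 2 libraries and were tested with limma on log2(scaled FPKM + 1), with Benjamini-Hochberg adjustment and a threshold of 0.05. Log2 changes (tumour minus normal) are on that scale, where low genes show less than their full change, and stand with ± their standard error from the fit. The make-up of the samples differed as well. All 12 cell cycle markers and all 8 neuroendocrine markers rose, with summed scaled FPKM of the former at 47.8 and 43.6 in normal prostate against 1754 and 879 in the tumours, and of the latter at 1.47 and 0.95 against 655 and 1046. The proliferation marker Mki67 lay at 2.83 and 0.894 in the normal prostates and at 101 and 49.8 in the tumours. Of 7 luminal epithelium markers 2 fell, with sums of 2061 and 2456 against 316 and 1109, and of 5 smooth muscle markers 1 fell, with sums of 579 and 539 against 3.86 and 104. Of 6 macrophage markers 3 rose (Cd68, C1qb and Lyz2), with sums of 18.6 and 13.9 against 166 and 501. C1qa was higher in both tumours without passing. Adgre1 and Csf1r overlapped between the groups, at 2.75 and 1.45 against 1.36 and 4.47 and at 3.04 and 1.20 against 0.787 and 6.68. Cd68, like the neuroendocrine markers and some cell cycle markers, reached an FPKM of 1 in the tumours alone and had to differ in that direction. Of 3 basal epithelium markers tested Krt5 fell, with sums of 72.8 and 71.1 against 0 and 24.6 over 4 markers. Among all genes tested, 9.85% were called higher and 8.27% lower. The 6 fibroblast markers summed to 123 and 99.0 against 50.4 and 376, and the 5 endothelium markers to 7.21 and 3.81 against 1.51 and 25.0, both highest in tumour 2. The 6 neuron and glia markers summed to 15.2 and 14.5 against 67.5 and 87.4, and Snap25 rose. The 6 T cell markers were too low to be tested, with sums of at most 2.47. The part of these differences in the results below was not tested. In such bulk samples, fewer cells of a type and less RNA per cell cannot be told apart.

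Of the 45 genes, 43 could be tested, 4 rose in the tumours and 0 fell. The 4 were Whsc1, Prmt8, Suv39h1 and Suv39h2. That is 9.30% of the genes tested, beside 9.85% of all genes called higher, 8.27% called lower and 18.1% called in either direction, so the share of rises was near the background. At an unadjusted p under 0.05 it was 12 higher (21.5% of all genes) and 3 lower (18.3% of all genes), and voom with limma on the implied fragments called 2 higher and 0 lower (7.95% and 7.51% of all genes). Values of both tumours lay above both normal prostates for 20 of the 43 genes (46.5%, against 37.7% of all genes tested) and below them for 6 (14.0%, against 33.3%). Their median log2 change came to 0.34, and to 0.33 leaving out Prmt8, which was listed at 0 in both normal prostates, while the median of all genes tested was 0.07. A positive fold change was found for 31 of the 43 genes (72.1%), beside 52.0% of all genes tested. These counts are descriptions of a list and do not set it apart from other genes. Suv39h2, Prmt8 and Prdm16 reached the filter through the 2 tumours alone and had to differ in that direction.

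**Figure D1:**
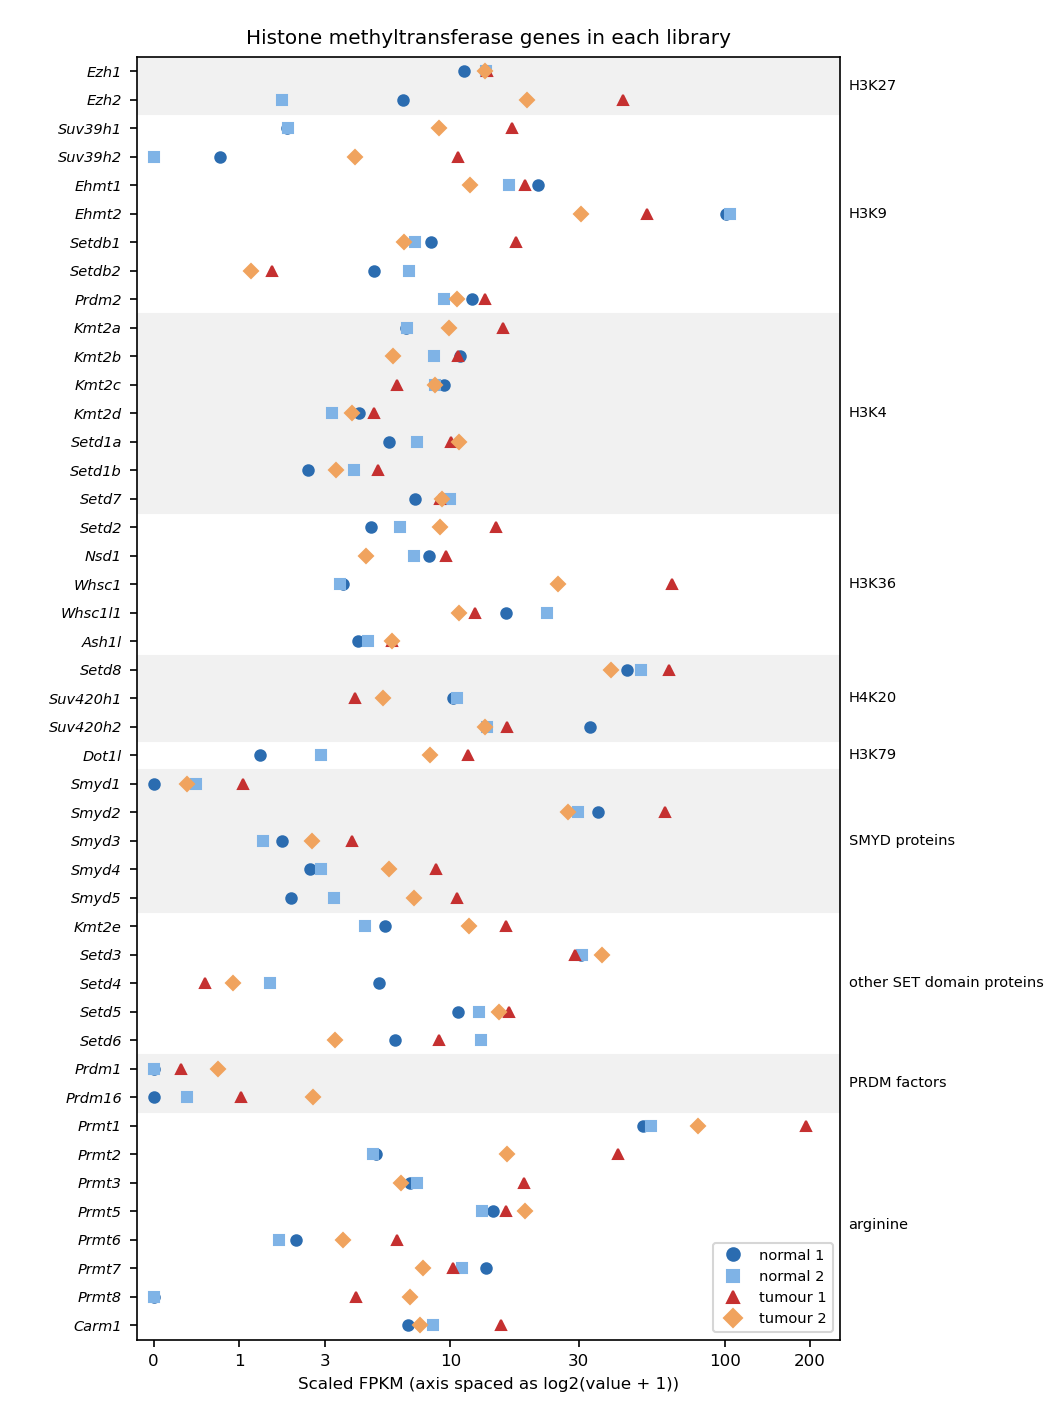
Scaled FPKM of the 45 methyltransferase genes in each library, on an axis spaced as log2(value + 1), with circles and squares for the 2 normal prostates, triangles and diamonds for the 2 tumours, and shading by histone residue or family. Whsc1 lies at 3.62 and 3.51 in the normal prostates and at 64.9 and 25.3 in the tumours, while Ehmt2, the highest gene in normal prostate, lies at 101 and 104 against 52.9 and 30.6.

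**Figure D2:**
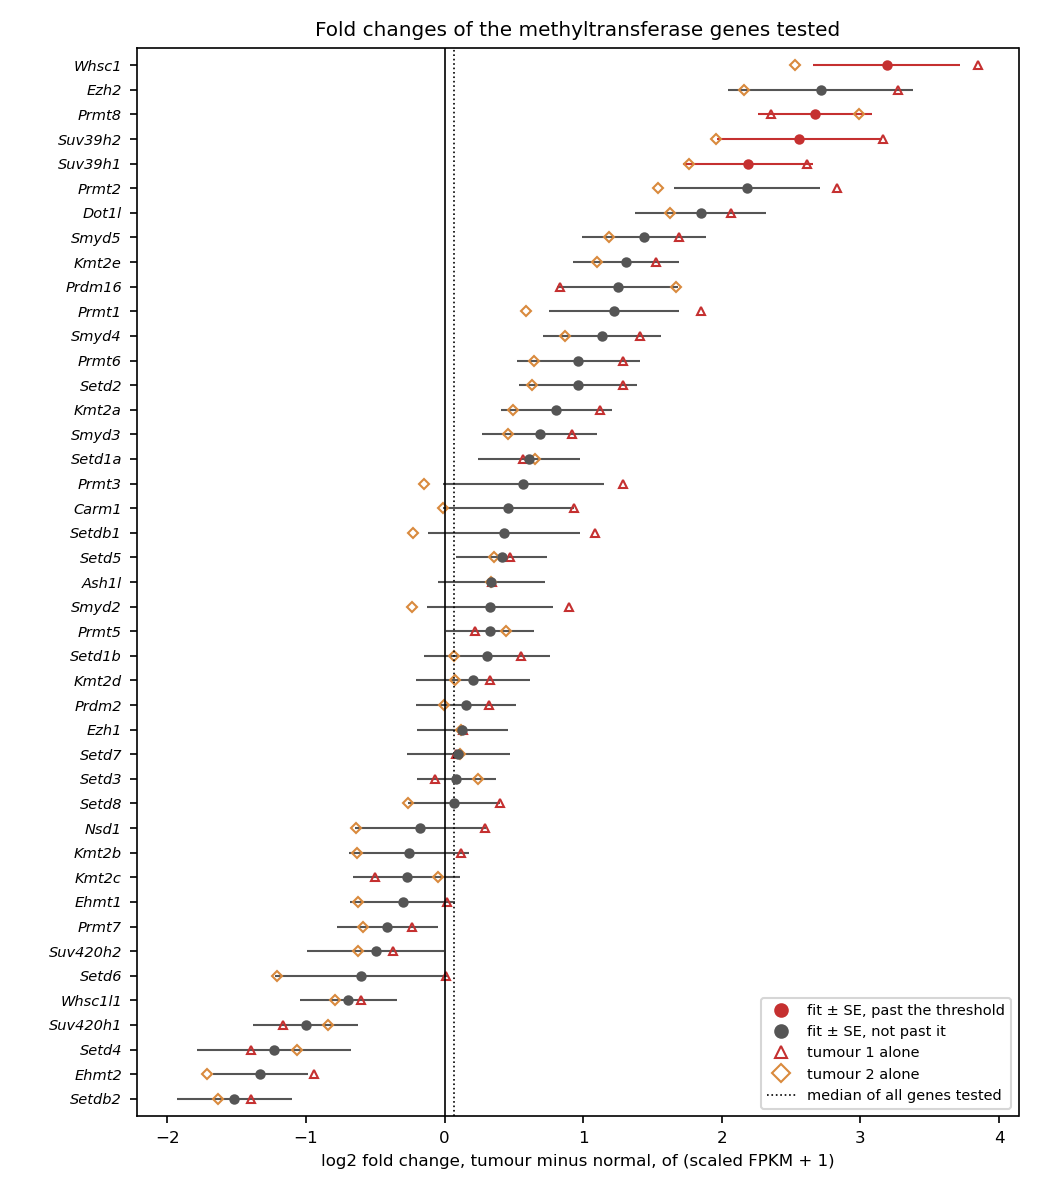
Fitted log2 fold change (tumour minus normal) with its standard error for the 43 genes tested, in order of size, with open symbols for each tumour set against the mean of the normal prostates. The 4 genes past the threshold are in red, and the dotted line is the median of all genes tested, 0.07.

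Of the enzymes of H3K27, the mark of Polycomb silencing, Ezh2 was higher in both tumours and its paralog Ezh1 was not. EZH2 is the main catalytic subunit of PRC2 in dividing cells and EZH1 is its counterpart in resting cells. Ezh1 (mm10 chromosome 11, 101191115 to 101226463) lay at 11.3 and 13.6 in the normal prostates and at 13.7 and 13.5 in the tumours, with a log2 change of 0.13 ± 0.33. Ezh2 (chromosome 6, 47530274 to 47595030) lay at 6.49 and 1.81 against 43.2 and 19.5, with 15.2 and 6.0 implied fragments in the normal libraries. Its log2 change of 2.71 ± 0.67 missed the threshold with an adjusted p of 0.0526, and over the 11 alternatives the adjusted p ran from 0.000221 (without tumour 2) to 0.252 (without normal 2), with 0.0266 on FPKM as deposited and 0.0749 with voom. The ratio of Ezh2 to Ezh1 within a library, which no scaling between libraries can alter, was 0.576 and 0.133 in normal prostate against 3.15 and 1.44 in the tumours. Ezh1 was thus the more abundant transcript per length in both normal prostates and Ezh2 in both tumours.

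Promoter windows of Ezh2, Ezh1 and the Suv39h pair, described next, are printed because Ezh2 and Ezh1 differ in how they moved, and because both Suv39h genes rose. They run from 250 bases before to 50 bases after the start site, from RefSeq on GRCm38.p6, 5′ to 3′ on the gene's strand. Capitals mark 4 E2F words (TTTCCCGC, TTTGGCGC, TTTCGCGC, TTTGCCGC) and the CHR word TTTGAA, the cell cycle homology region, searched on both strands with overlapping matches counted.
Ezh2, chr6:47594981-47595280, minus strand: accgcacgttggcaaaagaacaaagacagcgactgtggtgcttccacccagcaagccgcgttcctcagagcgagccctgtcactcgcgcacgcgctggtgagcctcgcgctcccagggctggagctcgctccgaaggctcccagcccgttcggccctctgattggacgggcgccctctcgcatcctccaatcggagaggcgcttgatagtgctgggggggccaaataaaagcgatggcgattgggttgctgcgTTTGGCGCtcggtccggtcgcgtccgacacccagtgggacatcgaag
Ezh1, chr11:101226414-101226713, minus strand: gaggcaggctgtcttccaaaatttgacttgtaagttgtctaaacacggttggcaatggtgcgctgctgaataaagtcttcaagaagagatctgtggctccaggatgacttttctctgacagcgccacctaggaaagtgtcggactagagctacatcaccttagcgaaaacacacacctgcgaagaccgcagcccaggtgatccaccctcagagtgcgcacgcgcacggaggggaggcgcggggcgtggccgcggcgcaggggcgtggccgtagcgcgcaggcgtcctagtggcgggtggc
Suv39h1, chrX:8074312-8074611, minus strand: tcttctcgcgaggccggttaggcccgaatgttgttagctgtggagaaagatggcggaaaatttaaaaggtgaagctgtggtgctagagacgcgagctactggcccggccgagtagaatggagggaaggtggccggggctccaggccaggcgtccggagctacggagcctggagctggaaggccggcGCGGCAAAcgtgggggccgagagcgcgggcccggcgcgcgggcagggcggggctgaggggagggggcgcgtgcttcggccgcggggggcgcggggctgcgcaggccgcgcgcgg
Suv39h2, chr2:3474937-3475236, minus strand: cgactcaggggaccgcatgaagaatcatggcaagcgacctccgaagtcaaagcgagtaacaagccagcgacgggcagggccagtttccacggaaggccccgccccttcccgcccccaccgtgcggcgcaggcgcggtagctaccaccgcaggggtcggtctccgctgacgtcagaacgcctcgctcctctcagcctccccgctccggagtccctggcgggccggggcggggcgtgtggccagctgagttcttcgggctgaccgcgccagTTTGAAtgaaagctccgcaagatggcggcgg
The Ezh2 window holds TTTGGCGC with its first base 4 bases into the transcript, and the Ezh1 window holds none of the words. The Suv39h1 window holds TTTGCCGC on the opposite strand 64 bases before the start, while the window of its other listed start, chrX:8074711-8075010, holds none. The Suv39h2 window holds TTTGAA 20 bases into the transcript. In the RefSeq table, 35 of the 45 genes had a window, with 42 windows in all. Of these, 3 held an E2F word (7.14%), beside 744 of all 32851 windows of the same length (2.26%), and 3 held the CHR word (7.14%, against 17.9%). The other E2F word was in Suv420h2, and the other CHR words were in Setd6 and Smyd1, none of which rose. Of the other genes that rose, Prmt8 held none of the words in its listed windows, and Whsc1 had no window. A match describes the letters of a window and is not a measured site.

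Genes for H3K9 enzymes, the writers of a mark of heterochromatin, did not move together. Suv39h1 and Suv39h2, which trimethylate H3K9 in pericentric heterochromatin, rose from very low levels. Suv39h1 (chromosome X, 8061171 to 8074760) lay at 1.93 and 1.96 in the normal prostates and at 17.1 and 9.01 in the tumours. In scaled FPKM + 1 it rose 4.57-fold (log2 change 2.19 ± 0.47, adjusted p = 0.0419), which is less than the change in scaled FPKM itself. Suv39h2 (chromosome 2, 3455815 to 3474986) was at 0.710 in normal 1, on 1.8 implied fragments, and listed at 0 in normal 2, against 10.7 and 4.08 in the tumours (log2 change 2.56 ± 0.59, adjusted p = 0.0476). Both calls were lost by voom on implied fragments (2.75, adjusted p = 0.0694, for Suv39h1 and 4.90, adjusted p = 0.0506, for Suv39h2) and under quantile normalization. Exons of Suv39h2 overlap Dclre1c on the opposite strand, and Dclre1c lay at 8.71 and 6.41 against 7.17 and 6.18, without such a difference.

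Ehmt2, which encodes G9a, the H3K9 dimethyltransferase of euchromatin, was lower in both tumours. Ehmt2 (chromosome 17, 34898492 to 34914050) was the most abundant of the 45 transcripts in normal prostate, at 101 and 104, and lay at 52.9 and 30.6 in the tumours. The groups did not overlap, and the log2 change of -1.33 ± 0.35 missed the threshold with an adjusted p of 0.0585. Its partner Ehmt1, which encodes GLP, lay at 21.3 and 16.7 against 19.1 and 11.9, and these ranges overlap. Setdb2 (chromosome 14, 59402011 to 59440877), a SET domain protein of the SETDB pair, lay at 4.93 and 6.90 against 1.60 and 1.20, a log2 change of -1.52 ± 0.42 (adjusted p = 0.0648). In FPKM as deposited both were still lower in both tumours but by less, with log2 changes of -0.40 for Ehmt2 (adjusted p = 0.361) and -0.84 for Setdb2 (adjusted p = 0.157), and Ehmt2 in tumour 1, at 71.1, was close to normal 2, at 72.0. With a library left out, the log2 change ran from -1.64 to -0.92 for Ehmt2 and from -1.81 to -1.34 for Setdb2. Setdb1, the H3K9 trimethylating enzyme that silences retroelements, was high in tumour 1 only, at 8.43 and 7.28 against 17.7 and 6.55. Prdm2, a PR domain zinc finger protein, lay at 12.1 and 9.41 against 13.6 and 10.6. In all, 2 of the 7 H3K9 genes rose and 0 fell with limma (9.85% and 8.27% of all genes). Of the 2, Suv39h2 reached the filter through the tumours alone and had to differ in that direction. At an unadjusted p under 0.05 it was 2 higher and 2 lower (21.5% and 18.3% of all genes).

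Whsc1 rose in the tumours, while no other H3K36 gene passed. Its product, also called NSD2 or MMSET, dimethylates H3K36. Whsc1 (chromosome 5, 33843112 to 33897966) lay at 3.62 and 3.51 in the normal prostates, on 24.7 and 36.5 implied fragments, and at 64.9 and 25.3 in the tumours, on 921 and 331. In scaled FPKM + 1 it rose 9.13-fold (log2 change 3.19 ± 0.53, adjusted p = 0.0282), and both tumours lay far above both normal prostates. Exons of Whsc1 overlap Nelfa on the opposite strand, which lay at 9.98 and 5.47 against 17.5 and 11.7 (log2 change 0.86, adjusted p = 0.218). Nsd1, an H3K36 methyltransferase of the same NSD family, did not share the rise and lay at 8.25 and 7.16 against 9.64 and 4.58. Whsc1l1, which encodes NSD3, the remaining member of that family, was lower in both tumours at 16.2 and 23.0 against 12.4 and 10.8 (log2 change -0.69 ± 0.35, adjusted p = 0.202), a sign that turned with FPKM as deposited (0.19). The ratio of Whsc1 to Nsd1 was 0.439 and 0.489 in normal prostate against 6.73 and 5.53 in the tumours, and that of Whsc1 to Whsc1l1 was 0.223 and 0.153 against 5.23 and 2.36.

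Setd2, the enzyme of H3K36 trimethylation, lay at 4.80 and 6.34 against 14.9 and 9.13, higher in both tumours but short of the threshold (log2 change 0.96 ± 0.43, adjusted p = 0.163). Ash1l, a trithorax-group H3K36 methyltransferase, lay at 4.21 and 4.64 against 5.86 and 5.84. Of the 5 H3K36 genes, Whsc1 alone passed, beside 18.1% of all genes called in either direction.

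None of the H3K4 enzymes passed the threshold. Of 7 genes, 0 were called in either direction by limma, by voom or at an unadjusted p under 0.05 in the limma fit. Of all genes, limma called 18.1% in either direction. Kmt2a, which encodes the trithorax homolog MLL1, lay at 6.71 and 6.76 in the normal prostates and at 15.8 and 9.87 in the tumours, above them in both (log2 change 0.81 ± 0.40, adjusted p = 0.197). Its close relative Kmt2b lay at 10.9 and 8.63 against 10.7 and 5.90. Their ratio moved from 0.615 and 0.783 in the normal prostates to 1.49 and 1.67 in the tumours, so that Kmt2a became the higher of the pair per length. Setd1a, the catalytic subunit of a SET1 COMPASS complex, lay at 5.69 and 7.37 against 10.1 and 10.8, and its counterpart Setd1b at 2.47 and 4.04 against 5.14 and 3.38. Kmt2c and Kmt2d, the enhancer H3K4 monomethylating enzymes, lay between 3.21 and 9.44 in all 4 libraries, with overlapping groups for each. Setd7, a monomethylating enzyme of H3K4 and of other proteins, lay at 7.29 and 9.96 against 9.10 and 9.31.

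For H4K20, the monomethylating and the di- and trimethylating enzymes are separate proteins, and no gene passed. Setd8, which encodes the H4K20 monomethylating enzyme needed for cell division, was abundant in every library at 44.98 and 50.2 against 63.0 and 39.4, and the groups overlapped (log2 change 0.07 ± 0.33). Suv420h1 lay at 10.2 and 10.6 against 4.09 and 5.39, lower in both tumours (log2 change -1.001 ± 0.38, adjusted p = 0.122). With FPKM as deposited tumour 2, at 8.098, was level with normal 1, at 8.085. Suv420h2 differed between the normal prostates, at 33.0 and 13.7, and lay at 16.3 and 13.5 in the tumours. None of the 3 genes passed with limma or voom, and 1 was lower at an unadjusted p under 0.05, beside 18.3% of all genes.

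Dot1l, the H3K79 methyltransferase (chromosome 10, 80755206 to 80794347), lay at 1.36 and 2.87 in the normal prostates and at 11.7 and 8.32 in the tumours. Both tumours were above both normal prostates, and the adjusted p of 0.0563 missed the threshold (log2 change 1.85 ± 0.47). Over the 11 alternatives the adjusted p ran from 0.00462 (without tumour 2) to 0.356 (without normal 1), with 0.0225 on FPKM as deposited and 0.0802 under quantile normalization.

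Of the genes for SMYD proteins, which pair a SET with a MYND domain, none of the 4 tested passed with limma or voom. At an unadjusted p under 0.05, 2 were higher, beside 21.5% of all genes. Smyd4 lay at 2.53 and 2.85 against 8.79 and 5.72, and Smyd5 at 2.03 and 3.30 against 10.6 and 7.21 (adjusted p of 0.119 and 0.0829). Smyd3 lay at 1.83 and 1.43 against 3.95 and 2.60. Smyd2, which also methylates non-histone proteins, was the most abundant of the family and high in tumour 1 only, at 35.2 and 29.9 against 61.2 and 27.4. Smyd1, a regulator of muscle development, was too low to be tested and lay at no more than 1.06 in any library. Of 7 skeletal muscle markers, 5 were tested and 0 passed, and their summed scaled FPKM was 74.9 and 66.8 in normal prostate against 15.8 and 42.4 in the tumours.

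Other SET domain genes held 1 that stood higher by more than a factor of 2, Kmt2e, a chromatin reader of the KMT2 family for which methyltransferase activity is doubted. Kmt2e (chromosome 5, 23434429 to 23504229) lay at 5.48 and 4.51 against 16.2 and 11.8 (log2 change 1.31 ± 0.39, adjusted p = 0.0739). Its exons overlap Srpk2 on the opposite strand, at 12.3 and 5.81 against 19.1 and 8.77. Setd3, now known as an actin histidine methyltransferase, lay at 30.6 and 30.7 against 29.1 and 36.4, and Setd5 lay at 10.7 and 12.9 against 16.6 and 15.3. Setd4 lay at 5.16 and 1.55 against 0.509 and 0.898, on 9.0, 4.0, 2.0 and 3.0 implied fragments, and its level is poorly measured. Setd6, which methylates the NF-kappaB subunit RelA, overlapped between groups at 6.03 and 13.1 against 9.01 and 3.31. None of these 5 genes passed with limma or voom, and 1 was higher at an unadjusted p under 0.05, beside 21.5% of all genes.

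The PRDM factors Prdm1 and Prdm16 were near the floor. Prdm1, which encodes the repressor BLIMP1 of plasma cells, had no signal listed above 0 in normal prostate and 0.248 and 0.680 in the tumours, on 3.0 and 7.0 implied fragments, too low to be tested. Of the B and plasma cell markers, Ms4a1 and Cd79a were listed at 0 in all 4 libraries. Sdc1, the syndecan of plasma cells and epithelia, lay at 5.55 and 7.07 against 13.2 and 13.6, and Mzb1 was above 0 in normal 1 alone, at 1.32. Jchain, the immunoglobulin joining chain, was listed at 0 in the normal prostates and reached 0.652 and 6.14 in the tumours. Their part in the level of Prdm1 was not tested. Prdm16, which directs brown fat cell fate, lay at 0 and 0.306 against 1.03 and 2.63 (adjusted p = 0.105). The 5 fat cell markers summed to 12.7 and 14.3 against 4.16 and 71.5, nearly all of it Fabp4, and Cfd lay at 4.04 in tumour 2 alone. Plin1 and Lep were listed at 0 in all 4 libraries, and the part of fat cells in the level of Prdm16 was not tested.

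Of 8 arginine methyltransferase genes, 7 had a positive fold change (52.0% of all genes) and 1 passed as higher (9.85% of all genes). That gene was Prmt8, a membrane-anchored enzyme known from neurons. It reached the filter through the tumours alone and had to differ in that direction. Prmt8 (chromosome 6, 127689009 to 127769159) had a listed value of 0 in each normal prostate, against 4.11 and 6.93 in the tumours, on 22.0 and 31.0 implied fragments (adjusted p = 0.0259), so no fold is given. Snap25, the neuronal vesicle protein, was likewise listed at 0 there and reached 40.5 and 65.2 in the tumours. The 8 neuroendocrine markers all rose as well, and the part of either in the level of Prmt8 was not tested. Prmt2, a coactivator of nuclear receptors (chromosome 10, 76207226 to 76237865), lay at 5.05 and 4.89 against 41.5 and 16.3. Its log2 change of 2.18 ± 0.53 missed the threshold (adjusted p = 0.0514). Over the 11 alternatives the adjusted p ran from 3.53e-05 (without tumour 2) to 0.249 (without normal 2), with 0.0226 on FPKM as deposited and 0.112 with voom.

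Prmt1, the main producer of asymmetric dimethylarginine, was the most abundant of the 45 transcripts in the tumours. Prmt1 (chromosome 7, 44976755 to 44986420) lay at 51.2 and 54.8 in the normal prostates and at 194 and 80.2 in the tumours, both above the normal prostates but far apart from each other (log2 change 1.22 ± 0.47, adjusted p = 0.125). Carm1, the H3R17 methyltransferase, lay at 6.80 and 8.56 against 15.5 and 7.58, and Prmt3, a ribosomal protein methyltransferase, at 6.90 and 7.42 against 18.9 and 6.36. Both were thus high in tumour 1 only. Prmt6, the H3R2 enzyme, was low throughout at 2.15 and 1.74 against 6.16 and 3.60. Prmt5, the main producer of symmetric dimethylarginine, lay at 14.5 and 13.2 against 16.3 and 19.1, and Prmt7, the monomethylating enzyme, at 13.6 and 11.1 against 10.3 and 7.82. Exons of Carm1 overlap Yipf2, which fell from 88.1 and 87.3 to 12.2 and 16.6, and those of Prmt7 overlap Smpd3, which rose from 0.00941 and 0 to 11.4 and 5.21, each on the opposite strand, so these 2 enzymes are uncertain.

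The count of calls followed the scaling. With FPKM as deposited, 16 of the 43 genes rose and 0 fell (28.0% and 3.24% of all genes), and with scaling to the FPKM sum without genes above 1%, 10 rose and 0 fell (19.3% and 4.21%). Quantile normalization gave 2 and 0 (6.77% and 6.06%), a pseudocount of 0.1 gave 3 and 0 (9.92% and 6.18%), and no intensity trend gave 4 and 0 (9.19% and 6.4%). With low genes kept in, 0 of 45 passed (1.44% and 1.46% of all genes), with 10 higher and 3 lower at an unadjusted p under 0.05. Whsc1 and Prmt8 were the 2 genes that voom called.

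**Figure D3:**
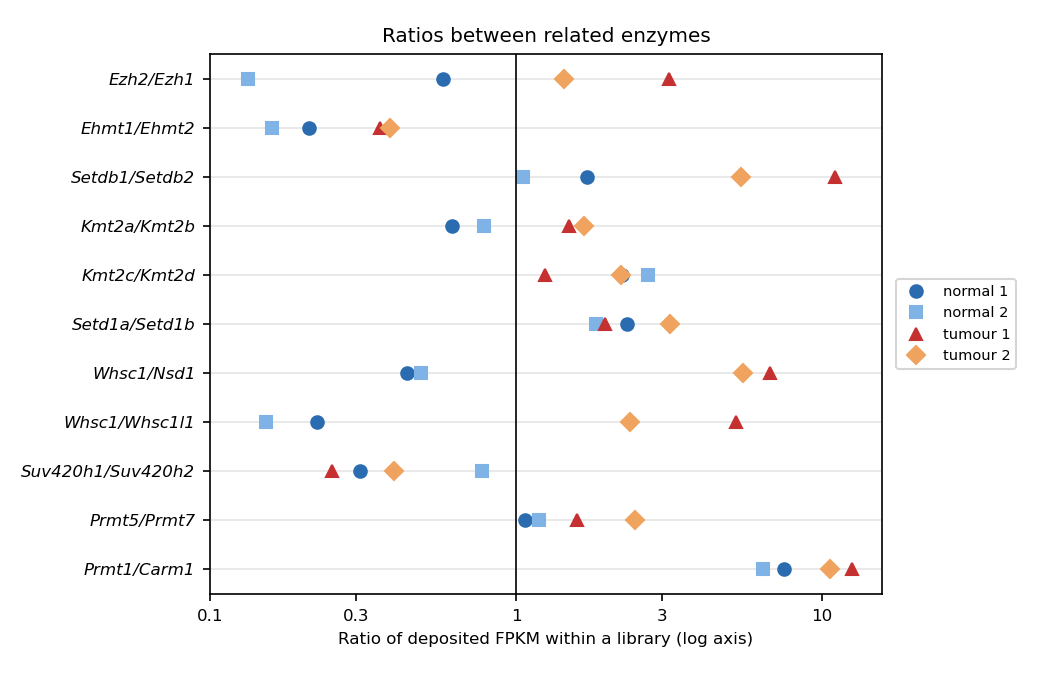
Ratios of deposited FPKM between related enzymes within each library, on a log axis, with a line at 1, where both genes of a pair have the same level per length. The ratios of Ezh2 to Ezh1, Kmt2a to Kmt2b, Whsc1 to Nsd1 and Whsc1 to Whsc1l1 lie below 1 in both normal prostates and above 1 in both tumours.

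Ratios of 2 genes within a library are free of the scaling between libraries, and 13 pairs were compared in this way, with no test, since 2 libraries against 2 cannot give an exact two-sided permutation p below 0.333. In 2 pairs a gene was listed at 0 in a normal prostate, Suv39h1 with Suv39h2 and Prmt1 with Prmt8. Besides the pairs above, Setdb1 stood to Setdb2 as 1.71 and 1.05 in normal prostate against 11.0 and 5.45 in the tumours. Ehmt1 stood to Ehmt2 as 0.211 and 0.160 against 0.361 and 0.389, with Ehmt2 the higher gene in all 4 libraries. Prmt1 exceeded Carm1 by ratios of 7.53 and 6.41 against 12.5 and 10.6, and Prmt5 exceeded Prmt7 by 1.07 and 1.19 against 1.58 and 2.45. Kmt2c stood to Kmt2d as 2.21 and 2.70 against 1.24 and 2.21, where normal 1 and tumour 2 were all but equal. The ratios of Setd1a to Setd1b and of Suv420h1 to Suv420h2 overlapped between the groups.

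The make-up of the whole set differed between the groups, with Ehmt2 a smaller share and the arginine, H3K36 and H3K27 enzymes a larger share in the tumours. As percentages of the summed FPKM of the 45 genes, which are shares per length and not of fragments, H3K9 enzymes held 27.8% and 27.4% in normal prostate against 14.4% and 13.6% in the tumours. H4K20 enzymes held 16.3% and 13.9% against 9.08% and 10.7%. The arginine enzymes held 18.5% and 19.0% against 33.3% and 27.2%, and the H3K36 enzymes 6.86% and 8.33% against 11.7% and 10.2%. The H3K27 enzymes held 3.28% and 2.88% against 6.19% and 6.08%, Dot1l 0.251% and 0.536% against 1.27% and 1.53%, and the SMYD genes 7.68% and 7.07% against 9.32% and 7.95%. In each of these 7 groups both tumours lay on the same side of both normal prostates. By scaled FPKM, that was so of single genes for 37.7% (above) and 33.3% (below) of all genes tested, so such separation is common. The shares of a library are also tied to each other, since a smaller share of Ehmt2 leaves larger shares to other genes. Without Ehmt2, the other H3K9 genes held 9.12% and 7.89% against 8.68% and 7.98%, so that their groups overlapped. The summed scaled FPKM of the H4K20 genes overlapped between the groups, at 88.1 and 74.6 against 83.5 and 58.3. Among single genes, Ehmt2 went from 18.6% and 19.5% to 5.76% and 5.635%, Prmt1 from 9.47% and 10.2% to 21.1% and 14.8%, and Whsc1 from 0.670% and 0.655% to 7.06% and 4.66%. By mean level Whsc1 ranked 32 of the 45 genes in the normal prostates and 3 in the tumours, and Ezh2 ranked 30 and 7, while Ehmt2 went from 1 to 5. The H3K4 enzymes held 8.65% and 9.09% against 6.73% and 9.56%, an overlap of the groups. The summed scaled FPKM of all 45 genes was 541 and 535 in the normal prostates, 919 in tumour 1 and 543 in tumour 2.

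**Figure D4:**
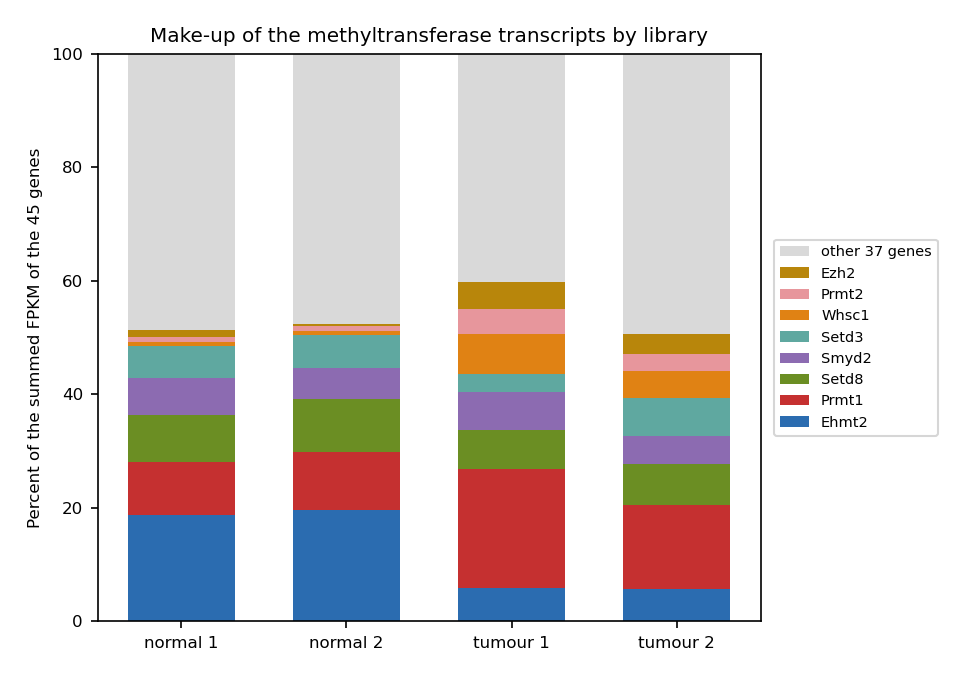
Percent of the summed FPKM of the 45 genes held by 8 of them and by the other 37 in each library, as stacked bars from 0 to 100. Ehmt2 narrows from 18.6% and 19.5% in the normal prostates to 5.76% and 5.635% in the tumours, while Prmt1 and Whsc1 widen.

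Most of the 43 genes were higher in tumour 1 than in tumour 2. It was so for 34 genes (79.1%, beside 52.4% of all genes tested), with a median log2 difference of 0.49 (0.06 for all genes tested). Between the normal prostates 19 were higher in normal 1, with a median log2 difference of -0.01. The cell cycle markers ran the same way, with summed scaled FPKM of 1754 in tumour 1 and 879 in tumour 2. All other marker lists summed lower in tumour 1 than in tumour 2. Luminal epithelium lay at 316 against 1109, smooth muscle at 3.86 against 104 and macrophage at 166 against 501. The part of any of these in the difference was not tested. Left alone with the normal prostates, tumour 1 gave 15 higher and 3 lower of 40 genes tested (37.5% and 7.50%, beside 19.7% and 30.8% of all genes) and tumour 2 gave 6 higher and 2 lower (15% and 5%, beside 11.6% and 20%). Such fits take the spread of the single tumour to be that of the normal prostates. Without normal 1 or without normal 2, limma called no gene of the whole table, so a call lost there is not particular to these genes. The call of Whsc1 was lost in those 2 fits and with no filter for low genes (adjusted p = 0.0551), and it held under the other 8 alternatives.

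Partners of the enzymes, the supply of their methyl donor and the lysine demethylases were read from the same fit. Of 64 such genes measured, 63 were tested, 6 rose (9.52%, beside 9.85% of all genes), 3 fell (4.76%, beside 8.27%) and 54 did not pass. With FPKM as deposited 25 rose and 2 fell, so the share of higher calls went from 66.7% to 92.6%, and for all genes from 54.4% to 89.6%. Of 7 partners in H3K9 silencing, 3 rose. Cbx5 and Cbx1, which encode the H3K9 methyl readers HP1 alpha and HP1 beta, lay at 5.09 and 2.86 against 51.1 and 25.6 (log2 change 2.94 ± 0.50, adjusted p = 0.0287) and at 13.9 and 10.6 against 56.3 and 68.7 (2.27 ± 0.31, adjusted p = 0.0224). Uhrf1, which reads H3K9 methylation and hemimethylated DNA, lay at 3.20 and 2.17 against 95.5 and 38.5. Cbx3, the remaining HP1 gene, lay at 87.5 and 77.9 against 200 and 84.4, with overlapping groups.

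Among 9 PRC2 partners, Phf1 fell and 0 rose (8.27% and 9.85% of all genes). Phf1, a Polycomb-like accessory subunit that reads H3K36 methylation, fell from 133 and 127 to 10.4 and 10.4. In scaled FPKM + 1 that was 11.5-fold (log2 change -3.52 ± 0.26, adjusted p = 0.0195). The core subunits Eed and Suz12 lay at 6.51 and 14.2 against 26.1 and 17.0 and at 18.7 and 16.3 against 59.4 and 34.6, higher in both tumours with adjusted p of 0.179 and 0.0670. Of 12 COMPASS partners, 2 rose and 1 fell (9.85% and 8.27% of all genes). Wdr82, a subunit of the SET1 complexes, lay at 6.57 and 6.90 against 45.3 and 22.0 (adjusted p = 0.0423). Psip1, the chromatin tether LEDGF, lay at 22.1 and 25.1 against 215 and 86.8 (adjusted p = 0.0358). Voom called 3 of the COMPASS partners higher and 1 lower (7.95% and 7.51% of all genes), with Psip1 among them and Wdr82 not. Dpy30, a core subunit of all COMPASS complexes, fell from 191 and 162 to 74.0 and 55.2 (log2 change -1.45 ± 0.28, adjusted p = 0.0345), which no longer passed on unscaled FPKM (-0.51) or under 4 further settings besides the fits without a normal prostate. The core subunits Wdr5 and Rbbp5 lay at 11.4 and 9.57 against 40.2 and 21.5 and at 7.06 and 7.17 against 21.9 and 11.1, and neither passed.

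Mat2a, which encodes the catalytic subunit of the enzyme that makes S-adenosylmethionine, fell 8.72-fold in scaled FPKM + 1. It lay at 593 and 588 in the normal prostates and at 91.2 and 48.9 in the tumours (log2 change -3.12 ± 0.36, adjusted p = 0.0203). It was the only one of 6 supply genes to pass, beside 18.1% of all genes called in either direction. Mat2b, its regulatory subunit, lay at 50.1 and 45.6 against 36.9 and 42.7, and Ahcy, which clears the product S-adenosylhomocysteine, at 18.8 and 13.7 against 59.1 and 31.1 (adjusted p = 0.0817). None of the 6 DOT1L partners and 3 PRMT5 partners passed with limma or voom. At an unadjusted p under 0.05 it was 1 lower among the former and 0 among the latter (18.3% of all genes lower and 21.5% higher). Mllt1 and Mllt3, partners of DOT1L, lay at 24.9 and 31.1 against 31.6 and 15.3 and at 11.6 and 9.07 against 21.4 and 12.8. Wdr77, the obligate partner of PRMT5, lay at 6.11 and 8.65 against 17.1 and 10.5, and Clns1a, its substrate adaptor, at 12.5 and 10.5 against 22.1 and 17.8. Of 20 demethylase genes tested, only Jmjd6, a hydroxylase of the JmjC family, passed, at 24.8 and 15.9 against 50.4 and 60.3 (log2 change 1.43 ± 0.34, adjusted p = 0.0496), a call lost under 6 of the 11 alternatives. Kdm1a, the H3K4 demethylase LSD1, lay at 33.3 and 31.5 against 39.3 and 30.3, and its relative Kdm1b at 11.5 and 10.7 against 4.32 and 3.56 (adjusted p = 0.0722).

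**Figure D5:**
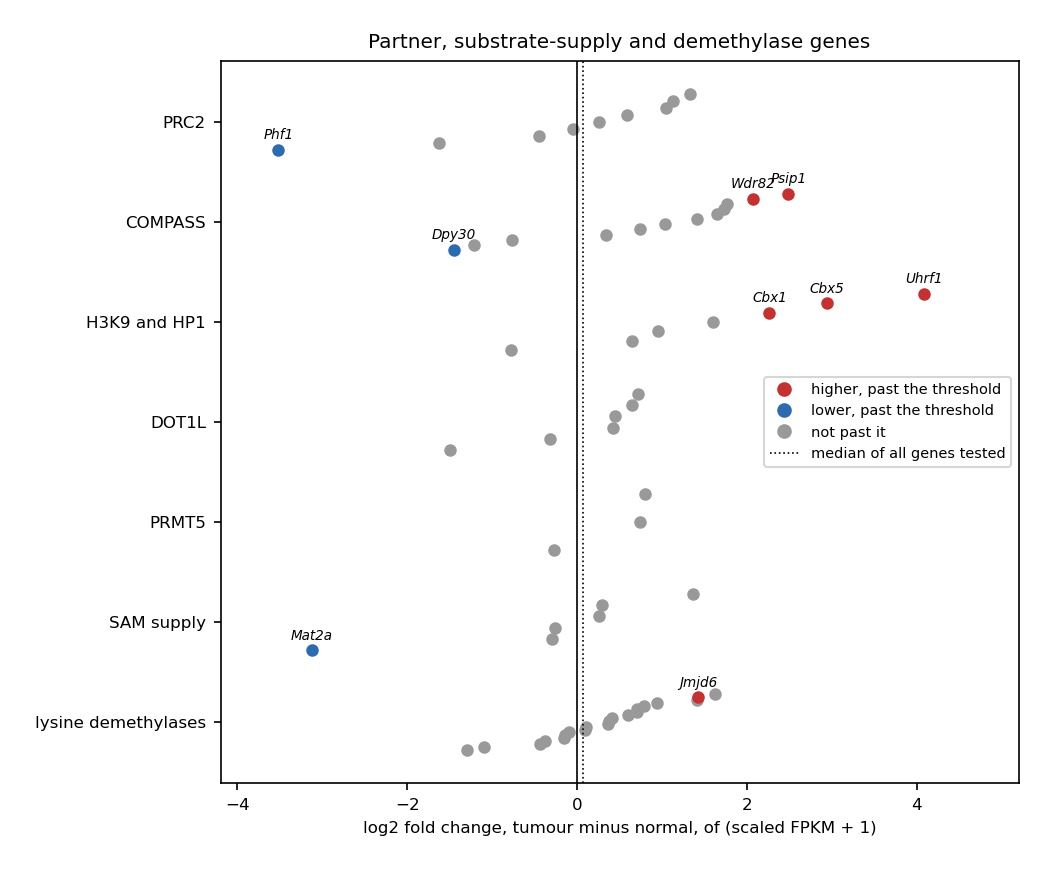
Log2 fold change (tumour minus normal) of the 63 partner, methyl donor supply and demethylase genes tested, 1 point for each gene, grouped by list, with the 6 that rose in red, the 3 that fell in blue and the dotted line at the median of all genes tested. Phf1, Mat2a and Dpy30 lie on the left and Uhrf1, at 4.08, lies farthest to the right.

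Use of strand in the counting: no source used here gives it. Exons of 20 of the 45 genes overlap a gene on the opposite strand in GENCODE M21. If strand was not used, reads in the shared stretches cannot be told apart. The protein-coding genes among these that are not named above are Cers2 (with Setdb1) and Dap3 (with Ash1l), neither of which passed the threshold, and B230104I21Rik (with Prdm16), not analysed here.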

How the data were processed

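Total RNA of 4 microdissected, frozen tissues was sequenced on Illumina libraries (TruSeq V2 kit), per the labels' protocols. The authors deposited 1 Cufflinks gene table per library with FPKM values and interval bounds. Per the submitters' processing notes, the tools were TopHat2 2.0.8 and Cufflinks and Cuffdiff 2.1.1 after Trim Galore, with build mm10. The annotation, the tools' settings and whether FPKM was scaled across samples: not given in the sources used here.

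Tables had 24883 rows apiece. The 27 rows named as dates were left out, and 817 rows sharing 280 names were summed by name. FPKM was divided by median-of-ratios factors over the 11469 genes above 0 in all 4 libraries, which moved the groups by 0.94 (log2) against each other. Genes with an FPKM of at least 1 in at least 2 libraries were tested with limma 3.58.1 in R 4.3.3, with an intensity trend and a pseudocount of 1 (residual degrees of freedom 2, prior 2.85), two-sided. The script was tested on simulated data. Tables were made in Python 3.11.15 with pandas 2.3.3. Read counts were not used here, and fragments were implied from interval widths, read as 2 Poisson standard deviations, and cover counting error only. The precision of low genes is limited accordingly.

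Members, gene lists and tests were chosen with earlier results of these data known. All 45 genes are named whatever their result, with every partner gene past the threshold and at most the first 2 others of each list. One listed partner, Copr5, matched no row. Coordinates come from the deposited tables (1-based), and all 45 overlapped their GENCODE M21 gene. Alternatives were other scalings, a pseudocount of 0.1, no filter, no trend, voom, and each library left out.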

Additional observations from a re-analysis of the deposited data

How the results depend on the processing

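With FPKM as deposited, 16 methyltransferase genes, 25 partner genes and 3681 of all genes were higher, with 0, 2 and 427 lower. With scaling to the FPKM sum without genes above 1%, 10, 16 and 2537 were higher and 554 of all genes lower. The median log2 change of all genes, 0.07 as reported, became 0.86 and 0.62. Quantile normalization and voom each left 2 methyltransferase genes higher. Without the filter on low values these were 0, with 2 partner genes higher, and 245 higher and 249 lower of all genes. Leaving out one library gave 0 (without either normal prostate) to 15 (without tumour 2) methyltransferase genes higher and 0 to 3 lower. For partner genes it gave 0 to 25 higher and 0 to 9 lower, and for all genes 0 to 2170 and 0 to 3405.

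Log2 changes that turned sign, none of them past the threshold as reported, were with FPKM as deposited Ehmt1 0.59, Kmt2b 0.59, Kmt2c 0.57, Nsd1 0.65, Whsc1l1 0.19, Suv420h2 0.39, Setd6 0.22, Prmt7 0.45. With the FPKM sum they were Ehmt1 0.32, Kmt2b 0.34, Kmt2c 0.32, Nsd1 0.40, Suv420h2 0.13, Prmt7 0.19, and with quantile normalization Kmt2d -0.0897, Setd1b -0.0295. With one library left out, the log2 changes that turned sign ranged as follows: Ezh1 -0.0525 to 0.23, Ehmt1 -0.55 to 0.0331, Setdb1 -0.16 to 1.09, Prdm2 -0.0393 to 0.33, Kmt2b -0.56 to 0.14, Kmt2c -0.48 to 0.0224, Setd1b -0.00619 to 0.57, Setd7 -0.16 to 0.27, Nsd1 -0.57 to 0.30, Setd8 -0.19 to 0.42, Suv420h2 -1.14 to 0.0543, Smyd2 -0.16 to 0.91, Setd3 -0.0548 to 0.31, Setd6 -1.17 to 0.0215, Prmt3 -0.0822 to 1.29. The cause was not tested. Prmt8, Suv39h2 and Prdm16 could not be tested without either tumour, since they then fell below the filter. No paired analysis was possible because the labels give no replicate numbers that normal prostates and tumours share. Genes on few implied fragments, such as Setd4, Suv39h2 and Prdm16, are limited by depth.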
